A study of Mus musculus with 12 samples.

Results

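Protocadherins are cadherin-related cell adhesion proteins of the neuronal surface. This account follows the mouse genes whose symbol is Pcdh plus a number or plus the letter of the alpha, beta or gamma cluster. Of 46078 gene IDs in the deposited table, 70 carried such a symbol, and 66 of them had a mean of at least 10 normalized counts over the 12 libraries, as did 17496 genes in all. The 66 were 12 non-clustered genes and 54 clustered genes, namely 12 of 14 alpha, 21 of 22 beta and 21 of 22 gamma IDs. The members were chosen by symbol and level, not by a difference between groups.

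The tissue was hippocampus, taken from C57BL/6 animals aged 25 postnatal days, and the 12 RNA libraries fall into 4 groups of 3. The groups were wild-type males, wild-type females, and males and females heterozygous for the CHD8 mutation Asn2373LysfsX2, called mutants here. CHD8 is a chromatin remodeller of the CHD family, and the mutation is a frameshift. The labels name no other allele or treatment, and do not state whether libraries with the same group label are separate animals. The p-values then measure only library-to-library spread, which may be technical. The comparisons ask which protocadherins differ with the Chd8 mutation, in both sexes or in 1, and with sex.

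The clustered genes lie in tandem on mouse chromosome 18. In the alpha and gamma clusters each gene has its own large first exon with its own promoter, which is spliced to a set of constant exons common to the cluster, while beta genes have no constant exons. CTCF and cohesin loop a distant enhancer to the promoter that is used, most isoforms are chosen by chance in each neuron, and the combination lets a neuron recognise its own branches. The C-type genes at the ends of the alpha and gamma clusters are expressed more uniformly. The non-clustered genes are spread over the genome, have their own cytoplasmic domains, and are expressed in patterns that mark cell types and brain areas. CHD8 has been reported to bind CTCF.

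Members of the alpha and gamma clusters share sequence, which limits what a count per gene can hold. Each tested alpha gene shared at least 2860 exon bases with others of the family in the GENCODE M21 annotation of GRCm38, and only 35.1% to 51.4% of its exon bases were its own. Tested gamma genes held between 26.4% and 68.5% of their exon bases alone. Tested non-clustered genes had 78.9% to 100% of their own, the lowest being Pcdh7, and Pcdhb12 was the beta gene with the lowest share at 36.5%. Levels are therefore given per kilobase of own exon when genes are compared. How reads in shared bases were counted was not stated, and these levels take them as left out. Pcdhga10, with 0 own exon bases, was listed at 0 in every library.

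The other 3 IDs under the filter were also low throughout. Pcdha4, with 7.0% own exon bases, averaged 2.55 normalized counts, and the lesser of the 2 IDs named Pcdha11 averaged 1.19. Pcdhb1, whose exon bases were all its own, averaged 3.93.

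The library kit does not keep strand, so reads of a gene and of an overlapping antisense gene could not be told apart. Sequence stretches of 50 bases were also compared between members, outside those held by more than 5 genes. Of such stretches Pcdhgb1 shared 38.9% and Pcdhga4 38.2% with another member, mostly each other. Pcdha7 shared 19.6% and Pcdhgb2 16.2%, so the counts of these 4 genes are uncertain. Non-clustered genes shared none with another member.

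Libraries held 23721482 to 33327314 reads, of which 0.155% to 0.166% were from protocadherins. All 6 mutant libraries were shallower than all 6 wild-type libraries, and the effects of depth and genotype cannot be told apart. Chd8 itself was at 2751 to 2994 normalized counts in wild types and 2383 to 2513 in mutants, a change of -14.4% with a limma adjusted p of 0.0289. This call was lost without a filter on low values (limma adjusted p of 0.0538), with a replicate block (0.131) and, for most libraries, when 1 was left out (up to 0.161). Xist and the Y-linked Ddx3y matched the sex labels of the 12 libraries. Wild-type female 1 and mutant males 2 and 3 lacked choroid plexus tissue by their markers: Ttr was at 167 to 274 there and at 43047 to 156059 in the other libraries. Without these 3 libraries a single mutant male is left, so male values then rest on 1 mutant library, assumed to vary like the other groups. Main results are given with and without them. Neuronal marker scores, used to check the tissue, were high in every library, the pyramidal neuron score being 12.03 to 12.41 on the log2 scale.

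Non-clustered genes held 70.6% of all protocadherin counts and clustered genes 29.4%. If reads in shared bases were left out, the clustered share lacks those of the alpha and gamma constant exons and is too low. Per kilobase of own exon, Pcdh1 was highest at 1002 normalized counts (range 936 to 1051 over 12 libraries), followed by Pcdh20 at 885 and Pcdh9 at 656. Pcdh1 and Pcdh20 overlapped in their ranges, and Pcdh9, at 600.2 to 686, lay below both. Pcdh1 and Pcdh9 are delta-1 protocadherins, a branch defined by conserved cytoplasmic motifs.

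Pcdh8 followed among the non-clustered genes at 317 per kilobase. Pcdh19, Pcdh17 and Pcdh7 came next at 241, 218 and 215 per kilobase with overlapping ranges. Pcdh10, a delta-2 protocadherin linked to synapse elimination, stood at 165. Pcdh18, Pcdh15 and Pcdh11x were at 28.7, 27.2 and 23.4 per kilobase, again with overlapping ranges. Pcdh15, known for the tip links of inner ear hair cells, and Pcdh12, known from vascular endothelium, complete the non-clustered set, Pcdh12 being lowest at 6.20.

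Among clustered genes the C-type genes Pcdhgc5, Pcdhgc3 and Pcdhac2 were highest per kilobase of own exon, at 468, 424 and 343. These 3 lay above every other clustered gene, the next being Pcdhga11 at 155 and Pcdhga3 at 141. Per kilobase of all exon bases Pcdhgc5, Pcdhgc3 and Pcdhac2 were at 282, 140 and 176. On that scale Pcdhb9 was at 110.1, Pcdhga3 at 77.7 and Pcdhga11 at 40.8, so the place of Pcdhga11 depends on how shared bases are treated. The other C-type genes were not set apart in this way: Pcdhgc4 was at 84.2, and Pcdhac1 at 50.8 lay between Pcdha3 at 48.8 and Pcdha12 at 56.0. Tested alpha genes ranged from Pcdha8 at 5.42 to Pcdhac2, beta genes from Pcdhb6 at 20.2 to Pcdhb9 at 110.1, and gamma genes from Pcdhgb8 at 16.9 to Pcdhgc5. In counts not scaled by length, the beta cluster held 9.69% of all protocadherin counts. The gamma A and B genes held 7.55%, the gamma C-type genes 7.50%, the alpha C-type pair 2.72% and the other alpha genes 1.92%. These alpha and gamma shares would likewise lack reads of the constant exons, which beta genes do not have.

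**Figure D1:**
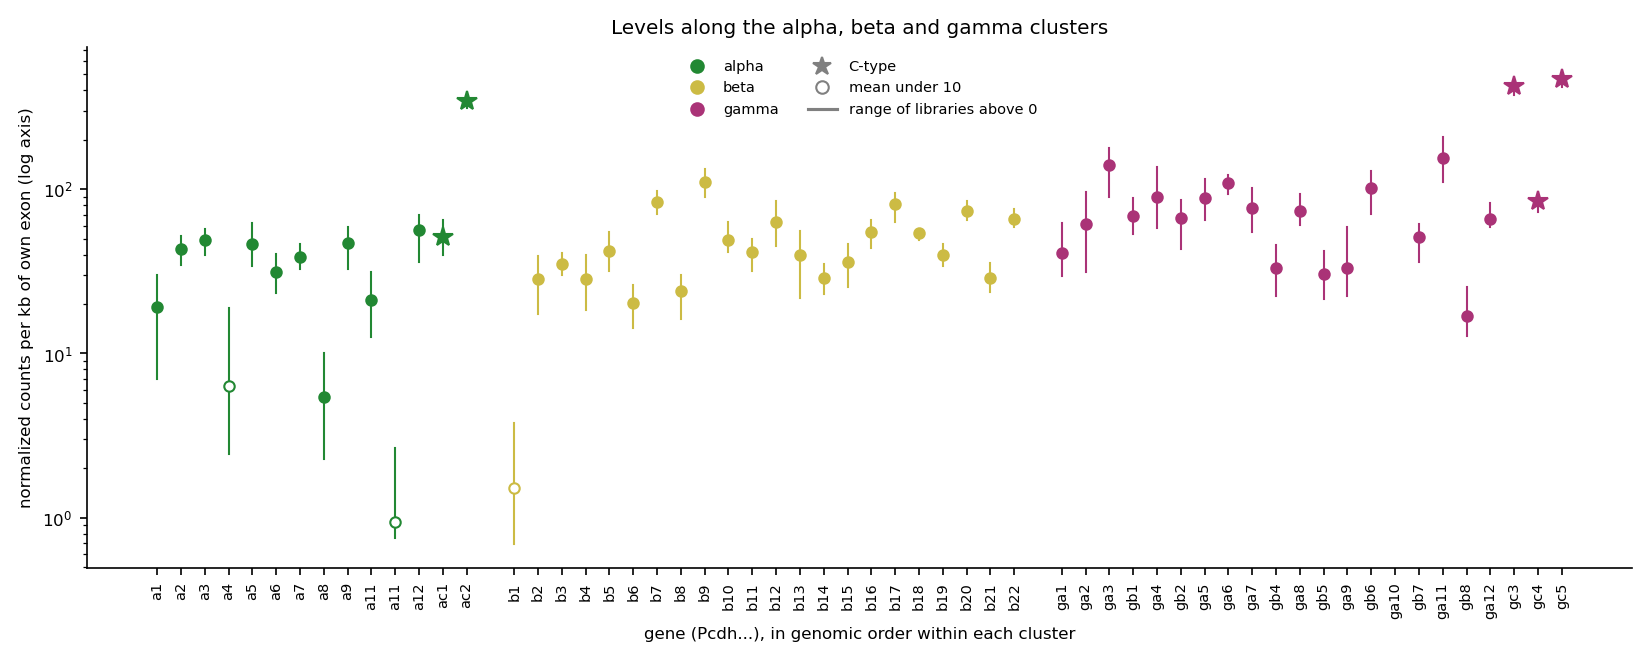
Mean normalized counts per kilobase of own exon (log axis) for the clustered genes in genomic order; lines span the libraries above 0, stars are C-type genes and open circles are genes with a mean under 10. Pcdhac2, Pcdhgc3 and Pcdhgc5 stand above the rest of their clusters, and Pcdhga10 has no point because it has no exon bases of its own.

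None of the 66 protocadherins passed limma's test at an adjusted p of 0.05 in the comparison of mutants with wild types averaged over both sexes, where 0.00572% of all genes passed, namely Chd8 alone. With an unadjusted p under 0.05 there were 5 members, all higher in mutants, or 7.58% against 8.87% of all genes. They were Pcdh8, Pcdhac1, Pcdhb9, Pcdha11 and Pcdhgb4, of which Pcdha11 and Pcdhgb4 were singled out after their values were seen. The count tests edgeR and limma-voom on recovered reads also called 0 members, while DESeq2 called 1, Pcdh8, where it called 0.429% of all genes. DESeq2 gave no adjusted p for some members, Pcdhac1, Pcdha11 and Pcdhgb4 among them, and so could not call those.

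Pcdh8, also called arcadlin, is a delta-2 protocadherin that neuronal activity induces and that takes part in the internalisation of N-cadherin at synapses. It lies at chr14:79766775-79771312 on the minus strand of GRCm38. Its promoter is printed because Pcdh8 is the member on which the genotype comparison turns. It is taken from RefSeq on GRCm38.p6 at chr14:79771263-79771562, minus strand, from 250 bases before the start of transcription to 50 after it. Capitals mark TATAAA and ATTGG, the reverse complement of CCAAT.

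Pcdh8 promoter: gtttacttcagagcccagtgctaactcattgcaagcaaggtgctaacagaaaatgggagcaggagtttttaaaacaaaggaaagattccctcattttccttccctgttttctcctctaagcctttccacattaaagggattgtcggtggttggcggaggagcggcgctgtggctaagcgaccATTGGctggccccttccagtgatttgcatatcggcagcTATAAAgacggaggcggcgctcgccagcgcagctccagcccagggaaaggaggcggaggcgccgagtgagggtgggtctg

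TATAAA begins 30 bases before the start of transcription and ATTGG 68 bases before it. TATAAA on either strand was in 13.6% of 32851 promoters of the same length, and on the sense strand at 36 to 15 bases before the start in 1.86%. CCAAT on either strand was in 37.4%. Promoter entries were found for 9 members, of which Pcdh8 and Pcdh15 held TATAAA and 8 held CCAAT. The cyclic AMP response element TGACGTCA was in 1.79% of promoters, and 0 of the 9 members held these letters in this window. Its shorter form TGACG was in 20.8% of promoters, with Pcdh9 and Pcdh10 among the members.

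Wild-type males had 1186, 1279 and 1194 normalized counts of Pcdh8, and mutant males had 1436, 1344 and 1292. In females the wild types had 1232, 1179 and 1276, and the mutants had 1405, 1372 and 1418. All 6 mutant libraries lay above all 6 wild-type libraries, although the gap from 1279 to 1292 was narrow. Pcdh8 was the only 1 of 66 members with all mutants above all wild types, an order seen in 0.303% of all genes, and 0 members had the opposite order, seen in 0.24%.

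The difference in Pcdh8 was 0.17 ± 0.035 (SE) on the log2 scale, or 12.5% with a 95% interval of 6.76% to 18.6%. Its unadjusted p was 0.0004 and its limma adjusted p 0.285. The exact two-sided permutation p over genotype within each sex was 0.005, the smallest that 400 arrangements can give, and 1.13% of all genes reached it. DESeq2 on recovered reads gave an adjusted p of 0.0270, edgeR 0.270 and limma-voom 0.285. Without the 3 libraries low in choroid plexus markers the difference was 0.21 with a limma adjusted p of 0.0726. The male and female differences were 0.15 and 0.19, and their difference, -0.03 with a limma adjusted p of 0.945, was smaller than its standard error of 0.070.

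Values that could move with Pcdh8 were set beside it. The annotated antisense gene Gm9748 shares 436 exon bases with it and was at 2.17 to 6.64 normalized counts in all 12 libraries. The score of 12 activity-regulated genes was 8.96 to 9.36 in wild types and 9.15 to 9.47 in mutants, with overlap. Of these genes 9 were higher in mutants and 3 lower. An unadjusted p under 0.05 was found for 3, all higher, or 25% beside 8.87% of all genes, and 0 passed limma's adjusted threshold. The CA1 marker score was 10.02 to 10.96 in wild types and 10.21 to 10.92 in mutants, and with that score as a covariate the Pcdh8 difference was 0.18 with a limma adjusted p of 0.157. All 13 markers of myelinating oligodendrocytes were lower in mutants with an unadjusted p under 0.05, beside 8.87% of all genes in either direction, and 0 passed limma's adjusted threshold. Their score was 13.2 to 13.6 in wild types and 12.9 to 13.4 in mutants. All 7 markers of meningeal fibroblasts were higher in mutants, 4 of them with an unadjusted p under 0.05 and 0 past the adjusted threshold. Their scores were 8.63 to 9.90 in wild types and 9.07 to 10.8 in mutants, and their median log2 difference was 1.29 in females and 0.15 in males, where 3 of 7 were lower. The part of activity-regulated genes, oligodendrocytes and meningeal fibroblasts in the protocadherin differences was not tested. In bulk tissue, fewer cells of a type and less RNA per cell cannot be told apart.

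The other non-clustered genes had no limma adjusted p below 0.568 for genotype. Pcdh18, a delta-2 protocadherin, ranged from 122 to 162 in wild types and from 145 to 190.1 in mutants, a log2 difference of 0.17 ± 0.079. Pcdh19, an X-linked delta-2 gene whose human counterpart is mutated in an epilepsy that mainly affects females, ranged from 2261 to 2565 in wild types. In mutants Pcdh19 ranged from 2419 to 2776, a log2 difference of 0.09 ± 0.044. Pcdh17, another delta-2 gene, was steady, at 2719 to 2902 in wild types and 2808 to 2959 in mutants.

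For Pcdh1 the log2 difference was 0.03 ± 0.030, and for Pcdh9 it was -0.04 ± 0.037. Pcdh20 had 0.06 ± 0.057, Pcdh7 had 0.05 ± 0.057 and Pcdh11x had 0.11 ± 0.12. Pcdh10 at -0.03 ± 0.060 changed sign without wild-type female 1, its highest library at 3040. Pcdh15 and Pcdh12 had the lowest estimates, -0.14 ± 0.083 and -0.22 ± 0.15. The wild-type and mutant libraries of all 11 genes overlapped.

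**Figure D2:**
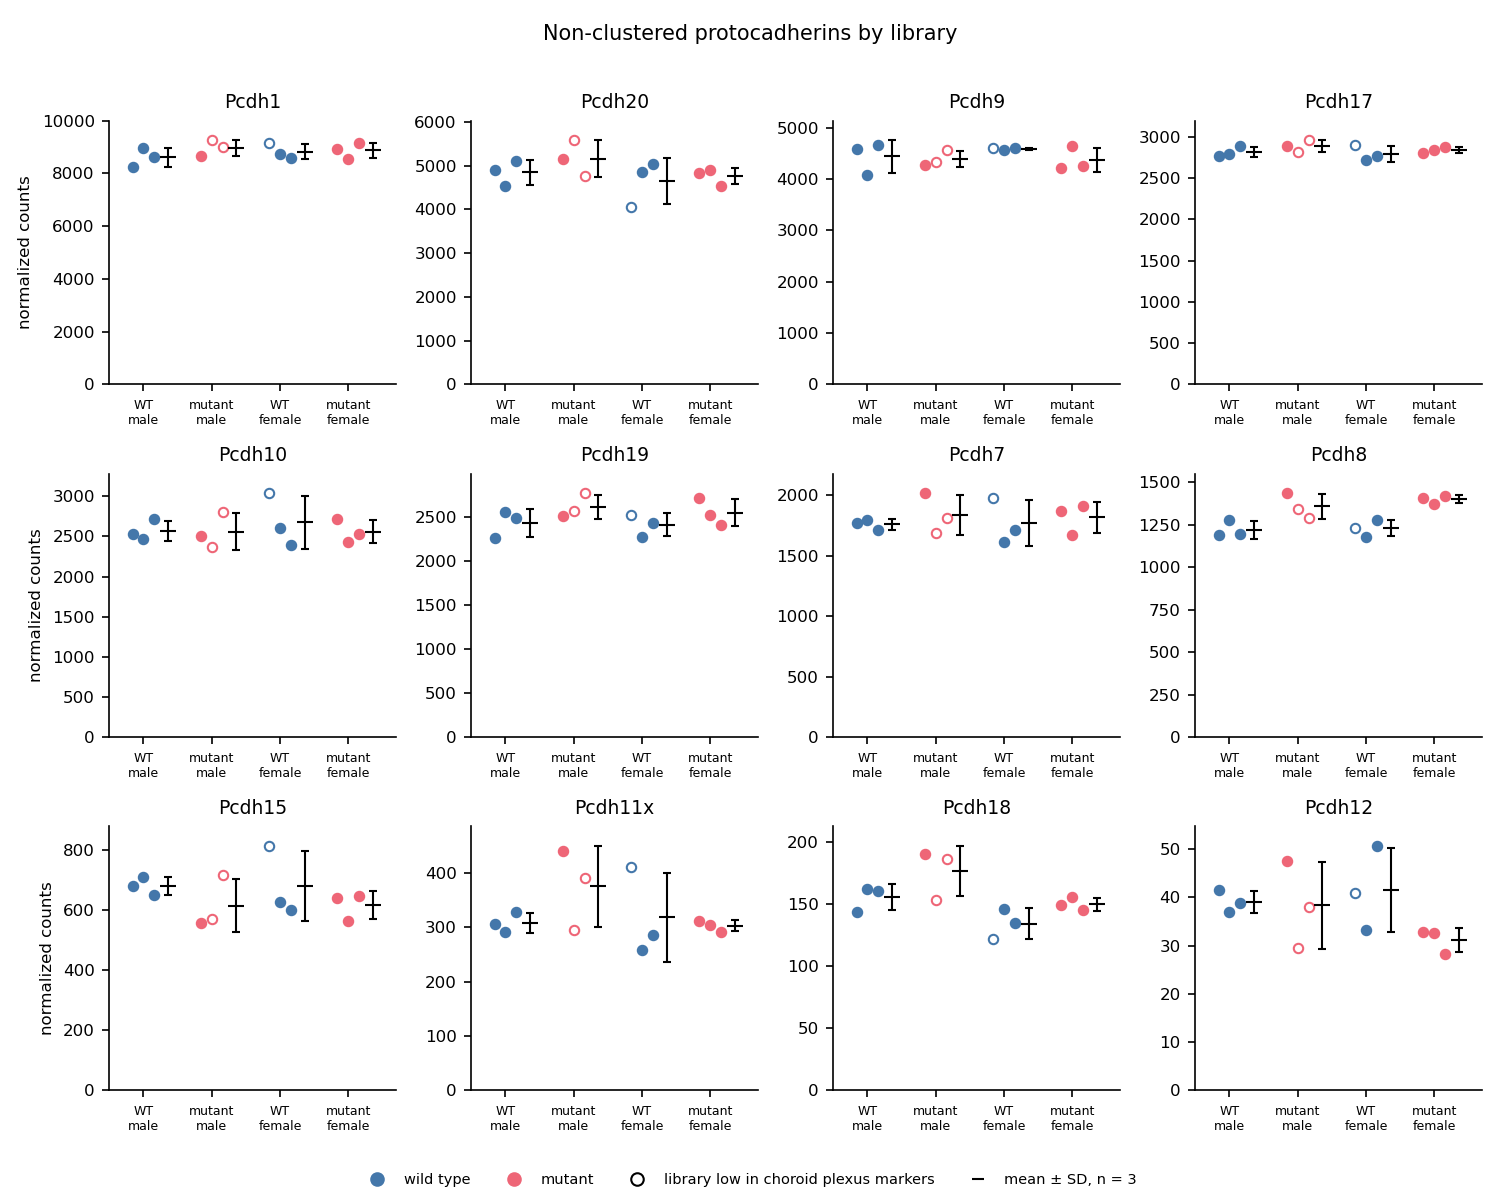
Normalized counts of the 12 non-clustered protocadherins in each library by group, with open circles for the 3 libraries low in choroid plexus markers and bars for mean ± SD (n = 3). The 6 mutant libraries of Pcdh8 lie between 1292 and 1436 and its 6 wild-type libraries between 1179 and 1279, while the 6 mutant and 6 wild-type libraries overlap in the other panels, although Pcdh12 does not overlap in females.

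With all 12 libraries, more members had positive than negative estimates. Of 54 clustered members 37 were higher in mutants, as were 8 of 12 non-clustered members, or 68.2% of all 66, beside 49.9% of all genes tested. The balance was not particular to protocadherins: 23 of 33 other cadherins and catenins and 20 of 29 genes for protocadherin partners were also higher. Of 21 genes that regulate protocadherins, 10 were higher and 11 lower. The median log2 difference was 0.04 for non-clustered, 0.06 for alpha, 0.08 for beta and 0.09 for gamma members, beside -0.00007 for all genes. The clustered median minus the non-clustered median was 0.03, and -0.03 without the 3 libraries low in choroid plexus markers. Without those libraries 27 of 54 clustered members were higher in mutants, with a median of 0.0016, and 9 of 12 non-clustered members, with a median of 0.03. The averaged positive balance of the clustered members was thus not seen without those libraries. In females it was kept, with 37 of 54 higher and a median of 0.14. In males, where 1 mutant library is left, the median was -0.09. Members share libraries and neighbouring genes and are not replicates, so these counts are a description.

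**Figure D3:**
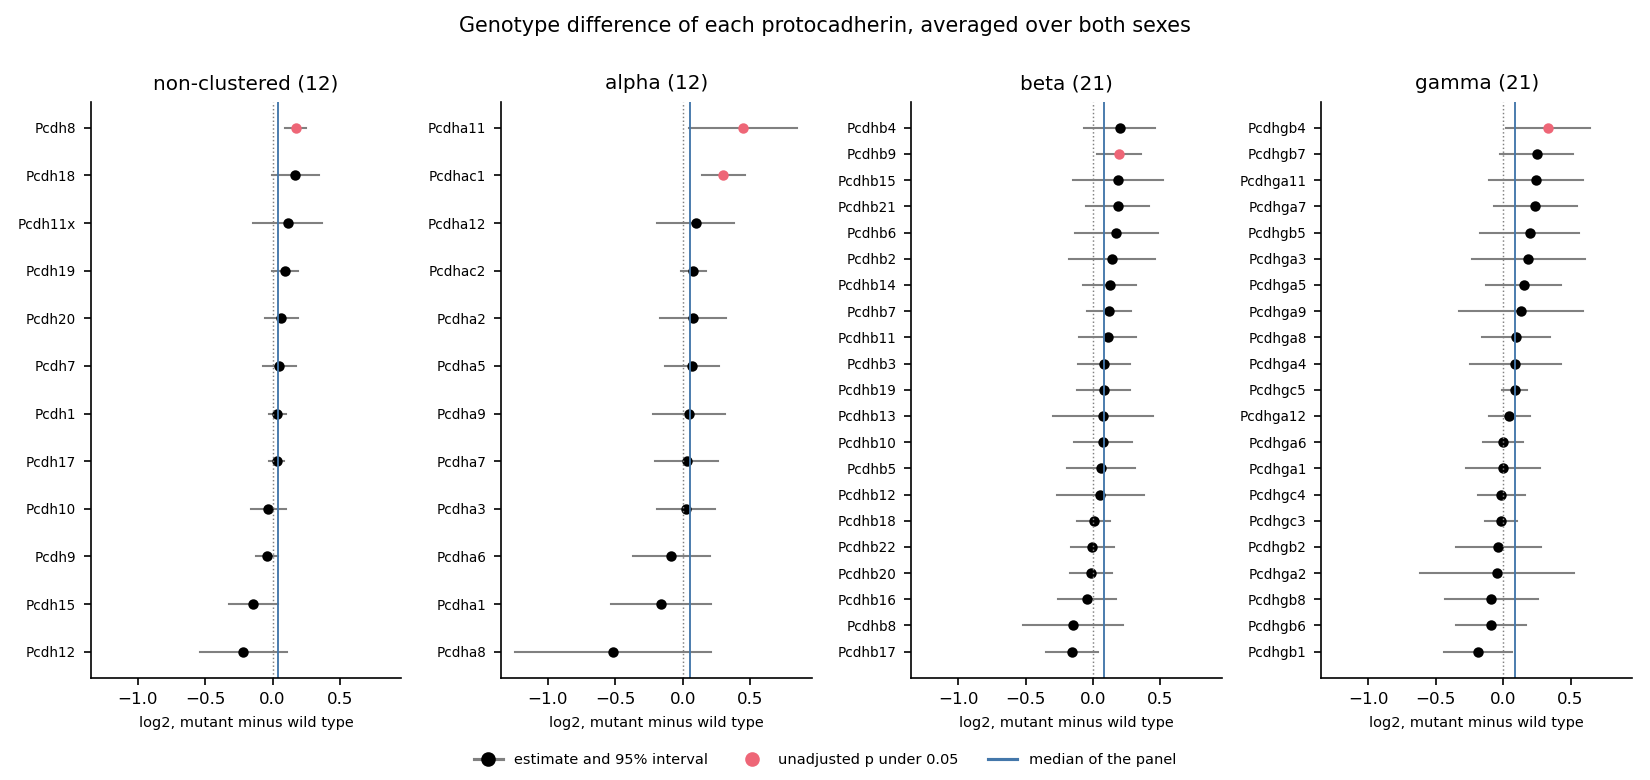
Log2 difference, mutant minus wild type averaged over both sexes, with 95% intervals for the 66 tested protocadherins; blue lines are panel medians and red points have an unadjusted p under 0.05. The red points are Pcdh8, Pcdha11, Pcdhac1, Pcdhb9 and Pcdhgb4, and the medians lie between 0.04 and 0.09.

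Pcdhac1, the alpha C-type gene at the lower level, had the next smallest p for genotype. Wild-type males had 115, 126 and 131 normalized counts and mutant males 164, 158 and 165, without overlap. Wild-type females had 107, 101 and 116 and mutant females 133, 130.2 and 114, with overlap. Its averaged difference was 0.30 ± 0.074 on the log2 scale, with a limma adjusted p of 0.311 and an exact two-sided permutation p of 0.010. Without the 3 libraries low in choroid plexus markers it was 0.30. In males alone it was 0.39 with all libraries and 0.40 without those, with limma adjusted p of 0.407 and 0.614. Pcdhac1 shared 0 stretches of 50 bases outside the constant exons with other members.

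The other C-type genes differed less from 0. Pcdhac2 ranged from 946 to 1080 in wild types and 996 to 1125 in mutants, and Pcdhgc5 from 1938 to 2193 and from 2076 to 2424. Their log2 differences were 0.08 ± 0.044 and 0.09 ± 0.043, with limma adjusted p of 0.632 and 0.588. Pcdhgc3 had -0.02 ± 0.054 and Pcdhgc4 -0.01 ± 0.080, and both changed sign when single libraries were left out. Pcdhgc3 is the gamma isoform reported to act on Wnt signalling through Axin1, and its counts may hold reads of BC037039, which overlaps 1559 of its exon bases on the other strand.

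Pcdhb9 was the beta gene with the smallest p. Its libraries ranged from 273 to 351 normalized counts in wild types and from 308 to 406 in mutants, with overlap. Its difference was 0.19 ± 0.075 on the log2 scale, with a limma adjusted p of 0.481. The other beta genes among the 3 with the highest counts were Pcdhb22, at -0.0042 ± 0.072, and Pcdhb17, at -0.15 ± 0.088. Among the alpha genes Pcdha3 had 0.02 ± 0.098, and among the gamma genes Pcdhga3 had 0.18 ± 0.19.

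In males 0 members passed limma's adjusted threshold, as did 0% of all genes, and 5 had an unadjusted p under 0.05, beside 10.3% of all genes. They were Pcdhac1, Pcdh8, Pcdha1, Pcdhb17 and Pcdha11. All 3 mutant males lay above all 3 wild-type males for 5 of 66 members, or 7.58%, beside 8.37% of all genes. The opposite order held for 1 member, Pcdha12, where 7.68% of all genes had it. With the 3 libraries low in choroid plexus markers left out, the single mutant male lay above all wild-type males for 13 members, or 19.7% beside 28.7% of all genes, and below them for 19, or 28.8% beside 29.0% of all genes. In neither sex alone did edgeR, limma-voom or DESeq2 call a member.

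In females 0 members and 0% of all genes passed the adjusted threshold, and 5 members had an unadjusted p under 0.05, beside 6.9% of all genes. All 5 were higher in mutants: Pcdhb4, Pcdh8, Pcdhgb7, Pcdhb9 and Pcdha5. All 3 mutant females lay above all 3 wild-type females for 9 members, or 13.6%, beside 5.14% of all genes. The opposite order held for 2, Pcdh12 and Pcdha6, beside 5.66%. The 9 were Pcdh8, Pcdhb2, Pcdhb4, Pcdhb14, Pcdha1, Pcdha5, Pcdhga5, Pcdhgb4 and Pcdhgb7, so 8 of them were clustered. The median log2 difference of clustered members was 0.15 in females and 0.02 in males, and that of non-clustered members 0.02 and 0.06. With those libraries left out the clustered medians were 0.14 in females and -0.09 in males, so the sign in males turned. In females 16 members then lay above the 2 remaining wild types, or 24.2% beside 11.2% of all genes, and 5 lay below them, or 7.58% beside 11.7%.

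Pcdhb4, a beta gene whose exon bases are all its own, had the smallest p for a difference between the sexes in its genotype difference, although the estimate for Pcdha1, -1.15 ± 0.34, was larger in size. Wild-type females had 68.1, 94.2 and 79.7 normalized counts, and mutant females 121, 148 and 128. Wild-type males had 114, 138 and 98.5, and mutant males 86.2, 111 and 82.6. The mutants were thus above the wild types without overlap in females, and the groups overlapped in males, where the mean was lower in mutants. The difference was 0.71 ± 0.17 in females and -0.32 ± 0.17 in males on the log2 scale. Without the 3 libraries low in choroid plexus markers, which include the wild-type female at 68.1, the female difference was 0.60 with a limma adjusted p of 0.444. The male difference minus the female difference was -1.03 ± 0.24, with an unadjusted p of 0.0011 and a limma adjusted p of 0.619, and -1.01 with a limma adjusted p of 0.753 without those 3 libraries.

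For that difference between the sexes 0 members and 0% of all genes passed limma's adjusted threshold, and edgeR, limma-voom and DESeq2 also called 0 members. An unadjusted p under 0.05 was found for 6 members, beside 7.85% of all genes. They were Pcdhb4, Pcdha1, Pcdha5, Pcdhga6, Pcdha12 and Pcdhgb7, and for 5 of them the male difference was the lower one. When the 3 libraries low in choroid plexus markers were left out, 14 members had an unadjusted p under 0.05, or 21.2% beside 6.49% of all genes, and 0 passed the adjusted threshold. Pcdha5 had 99.3 to 109 normalized counts in wild-type males and 79.4 to 107 in mutant males. In females Pcdha5 had 101 to 115 in wild types and 122 to 145 in mutants. Pcdhgb7 had 65.6 to 82.6 in wild-type females and 107 to 112 in mutant females, with overlap in males.

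**Figure D4:**
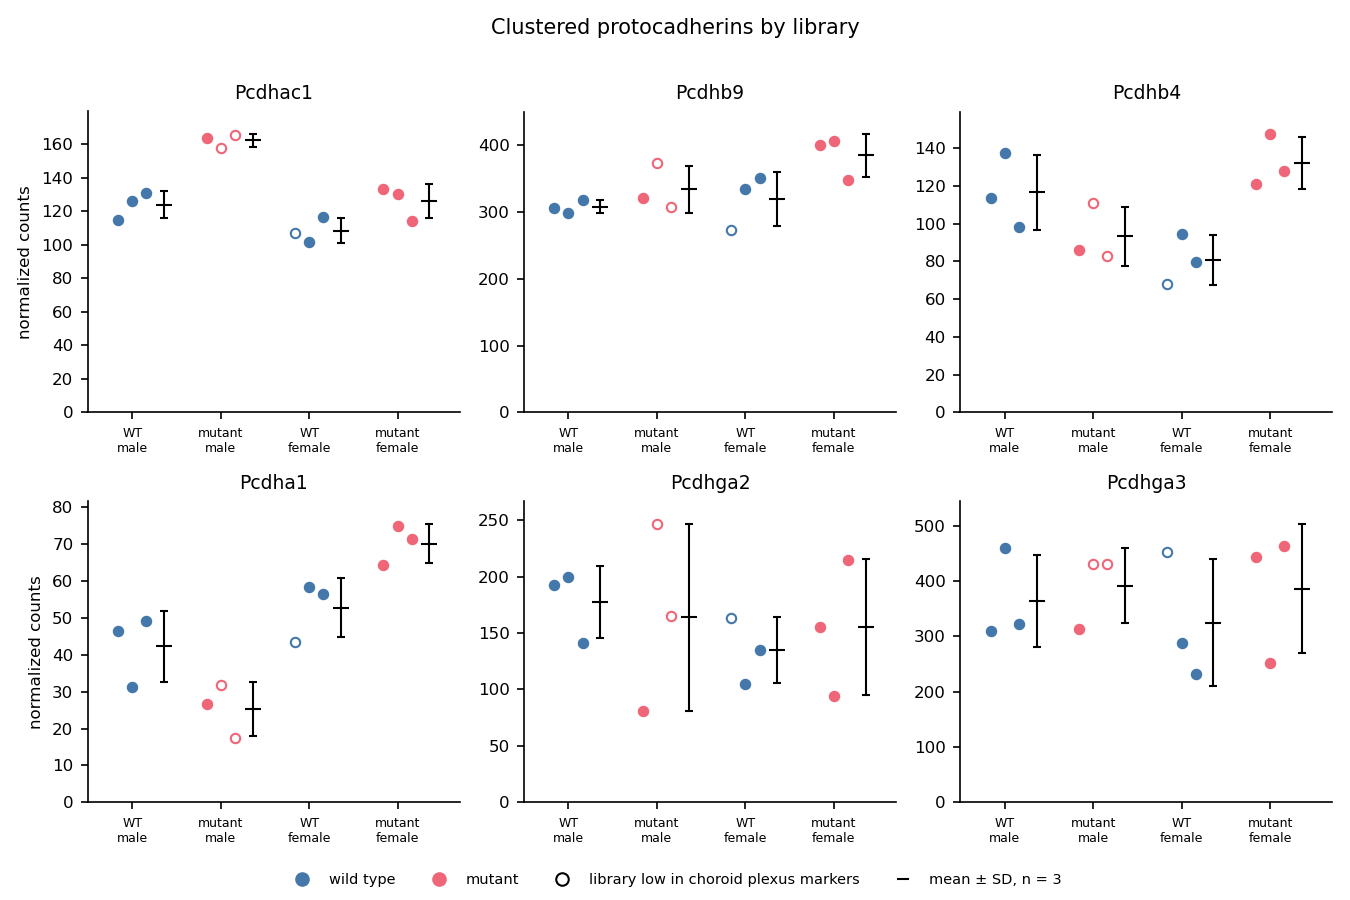
Normalized counts of 6 clustered protocadherins in each library by group, with open circles for the 3 libraries low in choroid plexus markers and bars for mean ± SD (n = 3). The mutant males of Pcdhac1 at 158 to 165 lie above its wild-type males, Pcdhb4 differs in females, Pcdha1 is lower in most males, and Pcdhga2 and Pcdhga3 spread widely within groups.

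Between the sexes 0 members passed limma's adjusted threshold, which 0.0686% of all genes passed, and 8 had an unadjusted p under 0.05, or 12.1% beside 6.64% of all genes. DESeq2 called 1 member, Pcdha1, where it called 0.274% of all genes. Pcdha1, the first gene of the alpha cluster, had 46.5, 31.3 and 49.2 normalized counts in wild-type males and 26.5, 31.8 and 17.4 in mutant males. Wild-type females had 43.6, 58.3 and 56.4 and mutant females 64.3, 74.9 and 71.3. Males were lower, with overlap among wild types alone.

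The male minus female difference of Pcdha1 was -0.90 ± 0.17 on the log2 scale, with a limma adjusted p of 0.121. Without the 3 libraries low in choroid plexus markers, 2 of which are mutant males, it was -0.91 with a limma adjusted p of 0.0962. DESeq2 gave an adjusted p of 0.00588 and edgeR one of 0.105. Pcdha1 shared 10.5% of its stretches of 50 bases outside the constant exons with other members. Its counts are low, with a counting error of 0.21 on the log2 scale for a single library. The other members with the smallest p were Pcdhac1, higher in males by 0.28 ± 0.074, and Pcdhga1, higher in males by 0.39 ± 0.13. Pcdh18 was higher in males as well, and Pcdha5, Pcdhb2, Pcdhb11 and Pcdhga4 were lower, with limma adjusted p of 0.571 to 0.731. With all 12 libraries the median male minus female difference was -0.13 for beta, -0.0005 for gamma and -0.04 for alpha members. For non-clustered members it was 0.01, beside -0.0037 for all genes. When the 3 libraries low in choroid plexus markers were left out, mutant male 1 was the only mutant male. The median male minus female difference was then -0.21 for beta, -0.06 for gamma and -0.08 for alpha members. It was 0.02 for non-clustered members, beside -0.00018 for all genes. The X-linked genes Pcdh11x and Pcdh19 had differences of 0.14 ± 0.12 and 0.03 ± 0.044.

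Libraries of 1 group differed widely for the gamma A and B genes. Their median within-group SD was 0.28 on the log2 scale over 17 genes with a mean of 50 to 500 normalized counts, beside 0.15 over 5585 genes of that range, with quartiles of 0.11 and 0.23. The beta genes had 0.18 and the alpha genes other than C-type 0.21 over 8 genes. Without the 3 libraries low in choroid plexus markers the medians were 0.22 for gamma A and B, 0.19 for alpha, 0.15 for beta and 0.14 for all genes of that range. Pcdhga2 spread most, from 80.7 to 246 normalized counts among the 3 mutant males alone, with an SD of 0.54 where counting error gives 0.115. Pcdhga9 and Pcdhga3 followed at 0.43 and 0.40. Some gamma genes were steady, such as Pcdhga6 and Pcdhga12 at 0.11 and 0.12, close to a counting error of 0.085 and 0.087.

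Many gamma genes of a library lay on the same side of their group. Mutant male 1 was the lowest mutant male for 15 of 18 tested gamma A and B genes and the highest for 0, where it was lowest for 36.2% of all genes. Its gamma A and B genes summed to 2698 normalized counts, beside 3551 and 3529 in mutant males 2 and 3. Mutant males 2 and 3 are both low in choroid plexus markers and mutant male 1 is not. This order and that tissue difference cannot be told apart among the mutant males. Wild-type male 2 was the highest of its group for 13 of 18, beside 32.8% of all genes. Mutant female 2 was the lowest of its group for 12, beside 35.8% of all genes.

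Members did not all follow their library. In mutant female 2 Pcdhga2, Pcdhga3, Pcdhga9 and Pcdhga11 were at 94.4, 252, 78.1 and 189, the lowest of the 3 mutant females. In the same library Pcdhga4, Pcdhga5 and Pcdhga12 were at 214, 294 and 341, the highest of the 3. Wild-type female 1 showed a like split, with Pcdhga3, Pcdhgb5, Pcdhga9 and Pcdhga11 highest in its group at 453, 194, 161 and 238. There Pcdhgb2, Pcdhga4 and Pcdhga12 were lowest at 119, 115 and 246. These genes were picked after their values were seen.

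In the beta cluster mutant male 2 was the highest of its group for 16 of 21 genes, where it was highest for 33.4% of all genes. Wild-type female 1 was the lowest of its group for 15, where it was lowest for 36.4% of all genes. Both are low in choroid plexus markers, and without the 3 such libraries the mutant males have no order left to compare. Among the non-clustered genes no library was highest or lowest in its group for more than 7 of 12, or 58.3%. Wild-type female 1 was highest for 7, beside 35.0% of all genes, and wild-type female 2 lowest for 7, beside 29.2%. In wild-type females these shares were above those of gamma A and B, at most 55.6% highest and 38.9% lowest.

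**Figure D5:**
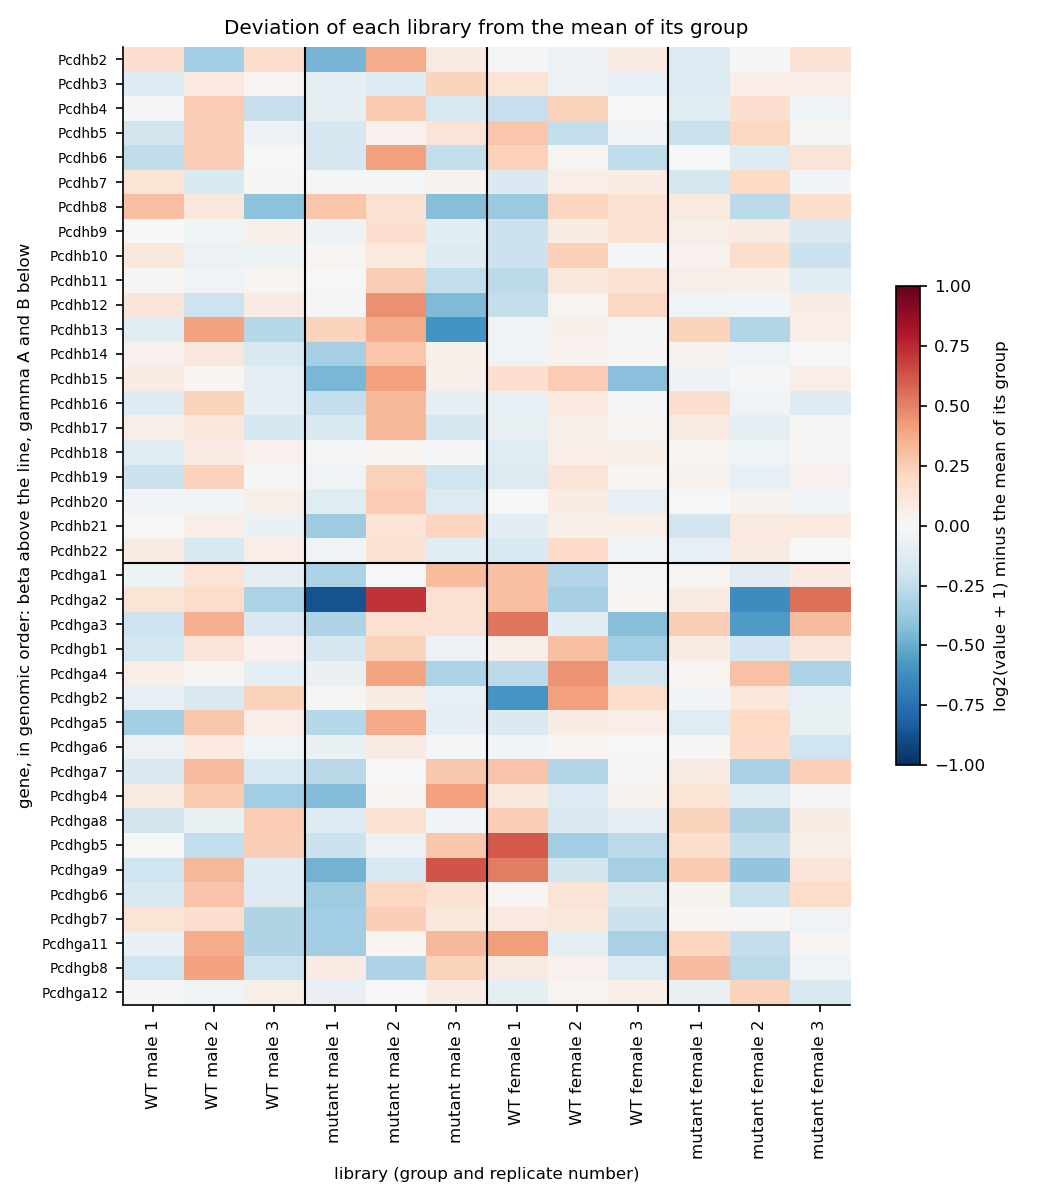
Log2(value + 1) of each library minus the mean of its group for the 21 beta genes (above the line) and 18 gamma A and B genes (below) in genomic order. Mutant male 1 is lowest of its group for 15 of 18 gamma genes, mutant male 2 is high for 16 of 21 beta genes, and in mutant female 2 Pcdhga2, Pcdhga3, Pcdhga9 and Pcdhga11 are low where Pcdhga4, Pcdhga5 and Pcdhga12 are high.

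Marker scores of cell types were set beside the gamma sums. In all 4 groups the library with the lowest gamma A and B sum was also lowest in the scores of pyramidal neurons, CA1 and inhibitory neurons, which were 3 of 15 marker lists. The library with the highest sum was highest in all 4 groups for 0 of the 15 lists. It was highest for pyramidal neurons in 3 of 4 groups, and for CA1 and inhibitory neurons in 2 of 4. The gamma C-type sum shared its lowest library in all 4 groups with oligodendrocyte precursors, astrocytes and microglia. It shared it in 3 of 4 with pyramidal neurons, CA1 and inhibitory neurons, as did the non-clustered sum. Its highest library was highest in all 4 groups for CA1 and microglia. The gamma A and B sum shared its lowest library with oligodendrocyte precursors, astrocytes and microglia in 3 of 4 groups. Mutant male 1, for example, had a CA1 score of 10.2, beside 10.8 and 10.9 in mutant males 2 and 3. The choroid plexus score separated the same libraries more widely, at 11.2 in mutant male 1 and 5.59 and 5.96 in mutant males 2 and 3. With the CA1 score as a covariate the median SD of the gamma A and B genes was 0.26, and with the choroid plexus score 0.25, beside 0.28 without a covariate. Over all genes with a mean of 50 to 500 the median SD was 0.154 without a covariate and 0.145 with either score. The part of tissue composition in this pattern was otherwise not tested.

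Of 21 genes known to regulate protocadherin promoters through CTCF, cohesin, DNA methylation or silencing, 0 passed limma's adjusted threshold for genotype in either direction, and 0 had an unadjusted p under 0.05, beside 8.87% of all genes. Their log2 differences ran from -0.05 to 0.06 with a median of -0.0027. Ctcf, which binds the promoters and enhancers of the clusters, was at 1965 to 2129 normalized counts in wild types and 1999.5 to 2171 in mutants. Rad21, a cohesin subunit, was at 2904 to 3199 and 2878 to 3047. Smchd1, which silences clustered protocadherins, differed by 0.03 ± 0.028 and Setdb1, a histone methyltransferase active at the clusters, by -0.02 ± 0.036.

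Of 29 genes for partners of protocadherins, 0 passed the adjusted threshold in either direction and 2 had an unadjusted p under 0.05, or 6.90% beside 8.87% of all genes, so the share was no higher than the background. Both belong to the WAVE complex, which controls actin branching and is bound by several protocadherins: Wasf1 with 0.09 ± 0.036 and Abi1 with 0.09 ± 0.038, both higher in mutants with overlap. The focal adhesion kinases Ptk2 and Ptk2b, which clustered protocadherins inhibit, had -0.04 ± 0.033 and 0.03 ± 0.042. Adam10, a protease that sheds the outer part of protocadherins, had 0.03 ± 0.031. The median of the list was 0.02.

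Of 33 other cadherins and catenins, 0 passed the adjusted threshold in either direction, and 4 had an unadjusted p under 0.05, all higher in mutants: Fat4, Cdh5, Cdh1 and Cdh2. That is 12.1% of the list, beside 8.87% of all genes. Cdh1, the epithelial cadherin, ranged from 9.87 to 55.4 in wild types and from 9.95 to 252 in mutants. Cdh2, the N-cadherin with which Pcdh8 associates, was at 3040 to 3405 in wild types and 3317 to 3458 in mutants, a log2 difference of 0.06 ± 0.028 with a limma adjusted p of 0.551. Fat4, a giant atypical cadherin, differed by 0.14 ± 0.045 with a limma adjusted p of 0.386. Cdh5, the cadherin of endothelium, differed by 0.27 ± 0.12. The endothelial marker score, whose list holds Cdh5, was 9.61 to 9.74 in wild types and 9.62 to 10.1 in mutants.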

How the data were processed

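For each Ensembl gene the authors deposited a signal, the read count divided by a library-wide size factor. The values themselves show this, since 100% of them in each library were whole multiples of 1 step, within 0.001 reads. Per the submitters' processing notes, which give no roles, the tools were HTSeq, DESeq2, TopHat2 2.1.0 and Trimmomatic 0.35, with the build GRCm38. Which annotation was counted is not given in the sources used. Per the labels' protocols the kit was TruSeq RNA v2. The table held 0 columns of other samples, 0 rows that name no gene, and 45143 IDs with a symbol in GENCODE M21.

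Groups came from the sample titles. Values were taken as log2(value + 1), which understates changes of low genes, and genes under a mean of 10 were dropped. With limma 3.58.1 (R 4.3.3), a model with 1 mean per group and a variance trend was fitted to the 12 libraries. Contrasts were genotype averaged over both sexes, in males and in females, the difference between the sexes, and male minus female. P-values were adjusted by the Benjamini-Hochberg method over 17496 genes. Single members were also tested by exact permutation of genotype within each sex. The code was tested on simulated data. Alternatives were edgeR 4.0.16, DESeq2 1.42.0 and limma-voom on recovered reads, other scalings, pseudocounts and filters, a replicate block, libraries left out and marker scores as covariates. The CA1 score as a covariate was chosen after seeing the data.

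No pair of libraries within a group was a duplicate: the chi-square per gene was 3.38 to 29.97. Pairs across groups were not compared in this way. Depth ran from 23721482 to 33327314 recovered reads, and counting error alone is given where named. Members and lists were chosen with earlier results of these data known. The text names all non-clustered members, the C-type genes, the 3 highest of each cluster, and per contrast the called members or, where none was called, the 3 with the smallest unadjusted p. Other names were chosen after their values were seen. Own exon bases, 1-based positions and shared stretches were computed from GENCODE M21, and promoters came from RefSeq on GRCm38.p6.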

Additional observations from a re-analysis of the deposited data

How the results depend on the processing

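Under 24 alternatives the count of protocadherins past the adjusted threshold stayed at 0 in each of the 5 contrasts, except with DESeq2. It called 1 for genotype averaged over both sexes, where it gave some members no adjusted p, and 1 for sex. Members with an unadjusted p under 0.05 ranged from 4 to 12 for averaged genotype, 3 to 12 in males, 4 to 11 in females, 3 to 14 for the difference between the sexes and 6 to 15 for sex. The Pcdh8 difference ran from 0.15 to 0.21, with adjusted p of 0.0270 to 0.623. Chd8 kept its difference, -0.2243 without a filter and with the replicate block, but with adjusted p of 0.0538 and 0.131, and -0.239 to -0.2085 with 1 library left out, with adjusted p up to 0.161. The replicate block, for numbers that did not pair the libraries (same-number correlations -0.581 to 0.287), left 0 members called in every contrast and gave Pcdh8 0.17 with an adjusted p of 0.287.

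Of 32 member results, 26 kept their sign in every alternative. The averaged genotype differences that changed sign were near 0. Pcdh10 was 0.0004 and Pcdhgc4 0.0176 without the 3 libraries low in choroid plexus markers. Pcdhb22 was 0.0007 with upper-quartile factors and 0.0017 with the choroid plexus covariate, and Pcdhga1 0.0023 with upper-quartile factors and 0.0017 by limma-voom. With 1 library left out, Pcdh10 ran from -0.0725 to 0.0146, Pcdhgc3 from -0.0491 to 0.0318, Pcdhgc4 from -0.0693 to 0.0311, Pcdha3 from -0.0155 to 0.0821, Pcdhb22 from -0.0419 to 0.0439 and Pcdhga1 from -0.0819 to 0.0764. The cause of these changes was not tested. Depth limits the lowest members most: for Pcdha8, counting error alone was 0.39 on the log2 scale.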
